A study of Mus musculus with 9 samples.

Results

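Described here are 10 genes for mesodermal and cardiac basic helix-loop-helix (bHLH) transcription factors, out of 21911 protein-coding genes, by the CHD7 peaks near them in cardiac precursor (CP) cells. The genes are Hand1, Hand2, Twist1, Twist2, Mesp1, Mesp2, Tcf21, Msc, Tcf15 and Tcf12. They were chosen by name, and a peak was given to a gene when its midpoint fell in the regulatory domain of that gene. The domain is the stretch from 5 kb upstream to 1 kb downstream of the transcription start site (TSS), extended on both sides up to the same stretch of the next gene or by at most 1 Mb. By this rule 8 of 3761 peaks lay in the domains of 4 of the 10 genes, and 6 genes had no peak. The 4 were Hand1 with 1 peak, Hand2 with 2, Twist1 with 3 and Twist2 with 2.

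CHD7 is a chromatin remodeller that moves nucleosomes and has no DNA sequence specificity of its own. Its positions were measured by CUT&RUN, in which an antibody directs a nuclease to the chromatin of a chosen protein and the released fragments are sequenced. The cells were wild-type mouse embryonic stem cells from C57BL6 mice, differentiated towards cardiomyocytes in culture and collected at day 5 as CP cells. There were 3 libraries with an antibody to CHD7, 3 with IgG as the negative control and 3 of input made without antibody, so that the cells of all 9 libraries shared 1 genotype, 1 protocol and 1 time. The deposited result is 1 list of peaks for the 3 CHD7 libraries together, without scores or read counts. Depth, the strength of each peak and the spread between replicates are therefore unknown, no value has a replicate error and no test was made. The list holds no RNA levels either, so neither the identity of the cells as CP nor the expression of the genes could be checked.

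The bHLH factors bind DNA as dimers. A basic region of each partner contacts one side of a short palindromic site, the E-box, and the helix-loop-helix region joins the partners. Tissue-restricted (class II) members such as HAND, TWIST and MESP proteins mostly pair with broadly expressed E proteins, of which TCF12 is one, and ID proteins, which lack the basic region, sequester E proteins. In the mesoderm MESP1 and MESP2 act at the onset, HAND1 and HAND2 in the cardiac fields and ventricles, and TWIST1 and TWIST2 in mesenchyme and cushion tissue.

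The sequences at the centres of 4 of the 8 peaks are given first, since the peak positions are the only measurements read here. Other evidence of the study at these genes, such as RNA levels in mutant embryos and ISL1 sites, was not used. They are both peaks of Hand2, which lie side by side and whose centres differ in repeat content, the Twist1 peak with the most GATA matches, and the Twist2 peak with the most E-boxes. Each is the central 300 bp on the plus strand of GRCm38, the assembly that mm10 carries, read from the RefSeq genome. Capitals mark every E-box (CANNTG) and every GATA consensus (AGATAA, or TTATCT where it lies on the minus strand).
Hand2 peak1687, chr8:56924116-56924415: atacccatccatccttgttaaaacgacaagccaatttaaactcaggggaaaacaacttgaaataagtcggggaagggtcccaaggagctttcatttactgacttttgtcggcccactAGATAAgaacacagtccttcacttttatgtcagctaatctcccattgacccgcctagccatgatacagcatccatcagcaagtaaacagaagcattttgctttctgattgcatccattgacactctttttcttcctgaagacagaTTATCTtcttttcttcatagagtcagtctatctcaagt
Hand2 peak1688, chr8:56933039-56933338: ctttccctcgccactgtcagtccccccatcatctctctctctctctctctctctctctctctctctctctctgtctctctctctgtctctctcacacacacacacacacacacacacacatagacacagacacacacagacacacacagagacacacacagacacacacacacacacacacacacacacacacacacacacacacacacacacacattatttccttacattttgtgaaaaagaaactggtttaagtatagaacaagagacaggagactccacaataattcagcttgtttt
Twist1 peak2597, chr12:34346557-34346856: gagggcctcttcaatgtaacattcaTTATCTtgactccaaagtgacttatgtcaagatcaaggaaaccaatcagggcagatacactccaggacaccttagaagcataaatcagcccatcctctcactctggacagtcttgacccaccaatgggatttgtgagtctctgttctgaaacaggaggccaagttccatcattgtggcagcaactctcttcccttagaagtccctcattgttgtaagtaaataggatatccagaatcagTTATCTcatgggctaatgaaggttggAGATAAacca
Twist2 peak105, chr1:91659697-91659996: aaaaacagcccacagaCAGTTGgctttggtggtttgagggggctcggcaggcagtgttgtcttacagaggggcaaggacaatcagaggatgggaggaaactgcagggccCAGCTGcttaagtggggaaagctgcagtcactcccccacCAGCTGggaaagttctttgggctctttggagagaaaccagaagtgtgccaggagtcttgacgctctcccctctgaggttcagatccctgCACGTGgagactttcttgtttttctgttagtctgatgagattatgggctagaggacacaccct

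The 4 of 10 genes with a peak are 40.0% (Wilson 95% CI 16.8 to 68.7, which covers counting error only), beside 22.7% of all protein-coding genes, 4978 of 21911. At least 2 peaks were found for Hand2, Twist1 and Twist2, beside 5.88% of all genes, and 3 peaks for Twist1 alone, beside 1.75% of all genes with 3 or more. These 3 genes had domains of 551269 bp or more, a class whose genes had a mean of 0.789 peaks each. The shares with 2 or more and 3 or more peaks were not taken by domain length. None of the 8 peaks was given to more than 1 of the 10 genes. The rule fixed this, since Hand1, Hand2, Twist1 and Twist2 have none of the other listed genes as a neighbour. The median domain of the 10 genes was 545.6 kb, against 90.2 kb for all genes and 202.6 kb for genes with a peak, while Mesp1 and Mesp2 lay below the median of all genes. Joined, they covered 4.26 Mb and held 1.88 peaks per Mb, against 1.42 per Mb of the sequenced genome. A longer domain holds a peak more often, so each gene was read beside genes with domains of its own length class, a decile of all genes. In the class of the longest domains, with Hand2, Twist1, Twist2, Tcf21 and Msc, 44.1% of genes had a peak, and 3 of the 5 did. In the classes of Hand1 and Tcf12 the shares were 34.8% and 45.0%. Tcf15 lay in a class with 19.9%, and Mesp1 and Mesp2 lay in one with 13.5%.

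**Figure D1:**
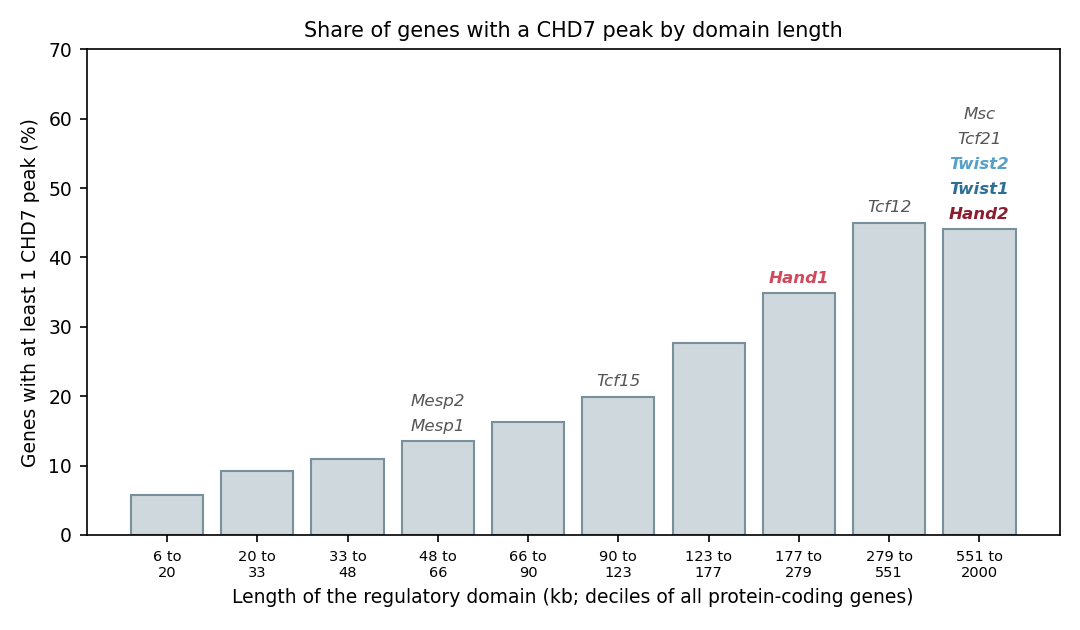
Bars show the percent of protein-coding genes with at least 1 CHD7 peak (y axis) in each decile of domain length (x axis, kb), and names above a bar show the bHLH genes of that decile, in bold colour where the gene has a peak. The share rises from left to right up to 45.0% in the ninth bar, and the 4 genes with a peak stand in the eighth bar, at 34.8%, and the last, at 44.1%.

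Hand1 encodes a factor of the left ventricle and the extra-embryonic mesoderm. Its gene lies at chr11:57828705-57832818 on the minus strand, in a domain of 201426 bp between the TSSs of Larp1 and Sap30l. Its 1 peak, peak2345, lay in intergenic sequence at -97553 bp from the TSS, that is, upstream. The same peak lay at -79364 bp from Larp1, a gene for an RNA-binding protein, and so was nearer to Larp1. With 1335 bp it was wider than 86.4% of all peaks, and with 53.6% GC it was richer in G and C than 82.8%. On the other side of Hand1 the next peak lay 197104 bp downstream, in the domains of Mfap3 and Galnt10.

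Hand2 encodes a factor of the second heart field, right ventricle, pharyngeal arches and limb. The gene lies at chr8:57320983-57324633 on the plus strand, in a domain of 895065 bp between Fbxo8 and Scrg1, the longest domain of the 10. Its 2 peaks were peak1687 at chr8:56923315-56925216, -396717 bp from the TSS, and peak1688 at chr8:56932512-56933866, -387794 bp from it. Both were intergenic and far upstream, and their midpoints were 8923 bp apart, closer than the distance to the next peak for all but 5.1% of peaks. Both were also shared with the domain of Fbxo8, a gene for an F-box protein, peak1687 at 373176 bp and peak1688 at 382099 bp downstream of the TSS used for it, so that both were nearer to Fbxo8 than to Hand2. The closest start of any Fbxo8 transcript was 336346 bp from peak1687 and 345269 bp from peak1688. Hand2os1, a long noncoding RNA gene at chr8:57281117-57324233, overlaps the start of Hand2. The nearest start of any of its transcripts was 369745 bp from peak1687 and 360822 bp from peak1688. Neither Hand2 nor Hand2os1 had a peak at its own start.

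The Hand2 peaks differed from the Hand1 peak in composition. peak1687 was the widest of the 8, with 1902 bp (wider than 96.3% of all peaks), and had 39.3% GC, above only 6.5% of peaks. peak1688 had 1355 bp and 41.6% GC. In the sequences above, the centre of peak1688 runs through long CT and CA dinucleotide repeats, and 70.3% of it is soft-masked as repeat in the reference, against 24.8% over the whole peak. The centre of peak1687 holds no masked base. How reads from such repeats were placed is not shown by the list, and the part of the repeats in the call was not tested.

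Twist1 encodes a factor of cranial and cardiac mesenchyme. The gene lies at chr12:33957671-33959829 on the plus strand, and its domain of 597902 bp reaches mostly downstream, because Ferd3l, another bHLH gene, starts 29246 bp upstream. The 3 peaks lay at 145909 bp (peak2595, chr12:34103349-34103811), 198256 bp (peak2596, chr12:34155699-34156155) and 389036 bp (peak2597, chr12:34346354-34347059). All 3 were downstream of Twist1 and all 3 fell in introns of Hdac9, a class IIa histone deacetylase gene of 24 introns, in introns 22, 21 and 11 of the transcript used. They were shared with the domain of Hdac9 alone, at 424748, 372401 and 181621 bp downstream of its TSS. For peak2595 and peak2596 the nearest coding TSS was that of Twist1 itself, which held for no other peak of the 10 genes. For peak2597 it was a start of Hdac9, at 90600 bp.

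The peaks of Twist1 were narrow or of middling width. peak2595 and peak2596 had 463 and 457 bp, wider than only 13.6% and 12.4% of all peaks, while peak2597 had 706 bp and stood at 50.3%. Their GC contents were 43.4%, 46.4% and 39.0%. peak2596 held no soft-masked base, a property of 7.92% of all peaks, and peak2597 held no CpG.

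Twist2, also known as Dermo1, encodes a factor of dermal and mesenchymal precursors. Its gene lies at chr1:91801461-91848028 on the plus strand, in a domain of 637796 bp between Asb1 and Hdac4. One peak lay on each side. The upstream one, peak105 at chr1:91659505-91660189, was intergenic, at -141623 bp from Twist2 and 119303 bp downstream of the TSS of Asb1, a gene for an adaptor of ubiquitin ligases. The downstream one, peak106 at chr1:92063813-92065096, lay 262985 bp from Twist2 in intron 2 of 26 of Hdac4, also a class IIa histone deacetylase gene, and 115886 bp from the TSS used for Hdac4. peak105 had 685 bp and 52.4% GC, and peak106 had 1284 bp and 48.7% GC with an observed to expected CpG ratio of 0.12, above 18.6% of peaks. Of the 5 peaks at the TWIST genes, 4 were therefore inside a histone deacetylase gene, and of the 3 peaks at the HAND genes none was inside a coding gene. Over all peaks, 53.2% were inside a coding gene. Hdac9 and Hdac4 take up most of the downstream side of the Twist1 and Twist2 domains, so a peak there often falls inside them.

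**Figure D2:**
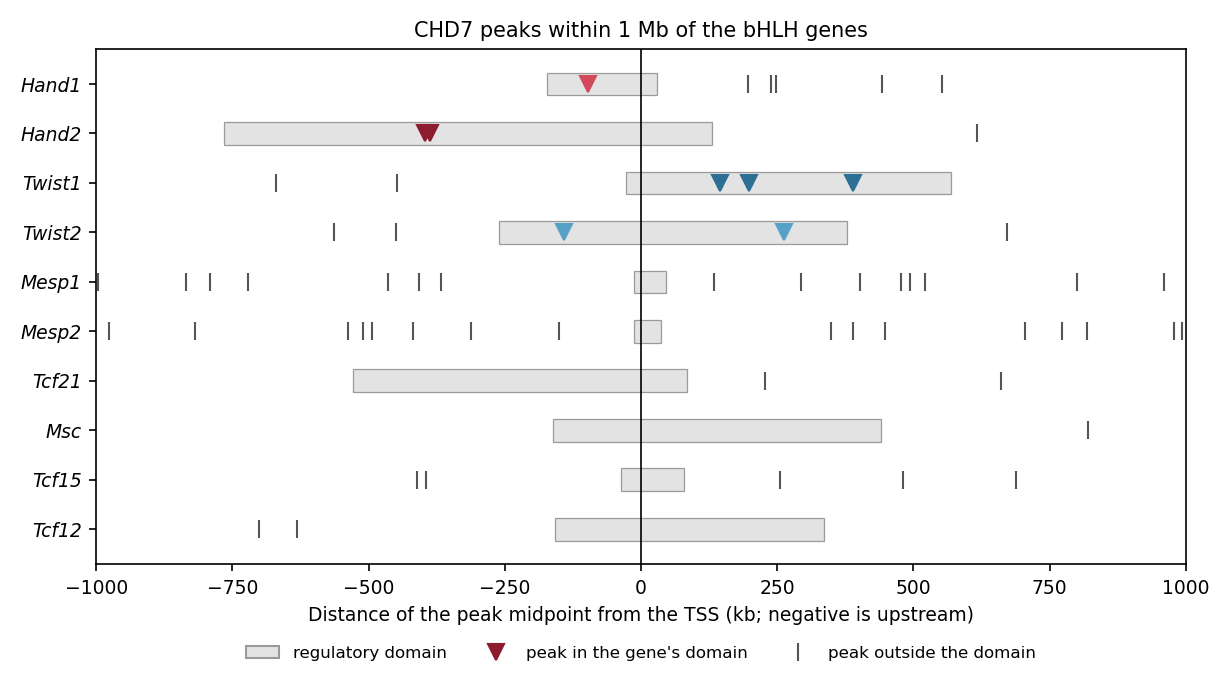
Each row shows 1 bHLH gene with its TSS at 0 and its direction of transcription to the right; the x axis is the distance from the TSS (kb), grey bars are regulatory domains, triangles are peaks in the domain and ticks are other peaks within 1 Mb. The nearest triangle to any TSS is that of Hand1 at -97553 bp, and the rows of Mesp1 and Mesp2 have the most ticks, 15 and 16, around short domains that hold none.

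MESP1 and MESP2 are the factors of nascent and segmenting mesoderm, and their genes lie head to head at chr7:79792241-79793788 and chr7:79810727-79813439, with TSSs 16939 bp apart. Their domains were short, with 57646 bp for Mesp1, bounded downstream by Wdr93, and 48421 bp for Mesp2, bounded downstream by Anpep, and neither held a peak. The surroundings were the richest in peaks of all 10 genes. Within 1 Mb of Mesp1 there were 15 peaks and within 1 Mb of Mesp2 there were 16, against a median of 4 for all genes, and only 87 genes had 15 or more. There were 37 other coding TSSs within 1 Mb of Mesp1, against a median of 29 for all genes, and 16 of those 37 genes had a peak in their own domain. Hand1 and Tcf15 had more coding TSSs within 1 Mb, 43 and 49, with 6 and 5 peaks. The nearest peak, peak1503 at chr7:79659191-79660501, was in the domain of Ticrr, a DNA replication gene, at 133942 bp downstream of Mesp1 and -150881 bp from Mesp2, and lay 88235 bp beyond the edge of the Mesp1 domain. Between it and the TSSs stood 5 other coding TSSs for Mesp1 and 6 for Mesp2. On the far side the first peak was 366664 bp from Mesp1, so that the stretch without a peak around the gene pair measured 500.6 kb.

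Tcf21, also known as epicardin or capsulin, encodes a factor of the epicardium and its derivatives, and Msc encodes musculin, a related factor of branchiomeric muscle precursors. Both had long domains, of 612455 and 602661 bp, and no peak. The nearest peak to Tcf21 (chr10:22817281-22820174) was peak2103 at 227274 bp downstream, past 2 other coding TSSs and in the domains of Raet1d and Slc2a12. The nearest peak to Msc (chr1:14753346-14755992) was peak9 at 820186 bp, in the domains of Xkr9 and Eya1. That distance exceeded the nearest-peak distance of 84.9% of all genes. Tcf21 and Msc lay in stretches without a peak of 2193 and 2201 kb, wider than those around 76.0% of genes, and had 2 peaks and 1 peak within 1 Mb.

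Tcf15 encodes paraxis, a factor of paraxial mesoderm and somites, and had no peak in its domain of 115314 bp. From this gene (chr2:152143561-152149097) the nearest peak, peak490, was 255398 bp downstream in the domain of Sox12, past 6 other coding TSSs. Tcf12 encodes the E protein HEB, a partner of many class II factors. It lies at chr9:71842688-72111871 and had no peak in a domain of 493276 bp, a length at which 45.0% of genes had one. Its nearest peak was peak1967 at -632178 bp, in the domains of Nedd4 and Prtg, and the stretch around it without a peak, 2803 kb, was the longest of the 10.

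In order of distance to the nearest peak the genes were Hand1, Mesp1, Twist2, Twist1, Mesp2, Tcf21, Tcf15, Hand2, Tcf12 and Msc. Having a peak in the domain did not follow this order. Mesp1 at 133942 bp was nearer to a peak than Twist1 at 145909 bp, and Hand2 at -387794 bp was farther than Tcf21 and Tcf15. The median distance was 189078 bp over the 10 genes and 165942 bp over all genes, and 5 of the 10 were closer than that median. The stretch without a peak around the TSS had a median of 622.5 kb for the 10 genes and 813.8 kb for all, and was wider than the latter for Hand2, Tcf21, Msc and Tcf12.

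Whether a gene had a peak depended on the rule. No peak lay in the stretch of 5 kb upstream and 1 kb downstream of any of their TSSs, while 3.17% of all genes had one there. Where each peak went only to the nearest TSS, with 1 TSS for each gene, Twist1 alone had peaks, peak2595 and peak2596, beside 14.2% of all genes. Within 100 kb of the TSS, whatever lay between, Hand1 alone had a peak, beside 36.8% of all genes. Within 1 Mb all 10 had one, beside 87.6% of all genes. With only the peaks wider than the median of the list, Hand1, Hand2, Twist1 and Twist2 still had at least 1 each, beside 13.0% of all genes. Neither the nearest TSS nor the 100 kb rule gave a peak to Hand2 or Twist2.

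The 8 peaks lay far from start sites. Their distances to the TSS of the gene ranged from 97553 to 396717 bp in size, with a median of 230620 bp, against a median of 57406 bp over all 6818 pairs of gene and peak. All 8 exceeded that median, and 7 of 8 were over 100 kb, against 35.5% of all pairs. The distance to the TSS of the gene is limited by the length of its domain. Hand2, Twist1 and Twist2 have domains in the longest decile, and pairs from domains of like length were not compared. To the nearest coding TSS of any gene, the distances ranged from 48876 to 345269 bp, against a median of 13852 bp for all peaks. By the rule a long domain holds no other gene's TSS as used here, so this distance can also be larger there. It was not compared with peaks from domains of like length. Of the 8, 4 peaks were upstream and 4 downstream, and 4 of 8 were inside a coding gene, against 53.2% of all peaks. A further count is that 6 of 8 were closer to the TSS of another coding gene. The rule can give a peak to the genes on both sides of it, and this share was not taken over all 6818 pairs.

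In width and composition the 8 spread over much of the range of the list. The median width was 995 bp against 703 bp, from 457 bp at Twist1 to 1902 bp at Hand2, and 5 of 8 were wider than the median of all peaks. All 3 peaks of the HAND genes were among these 5. The GC content ran from 39.0% at Twist1 to 53.6% at Hand1. The median soft-masked share was 13.15%, beside 13.16% over all peaks.

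**Figure D3:**
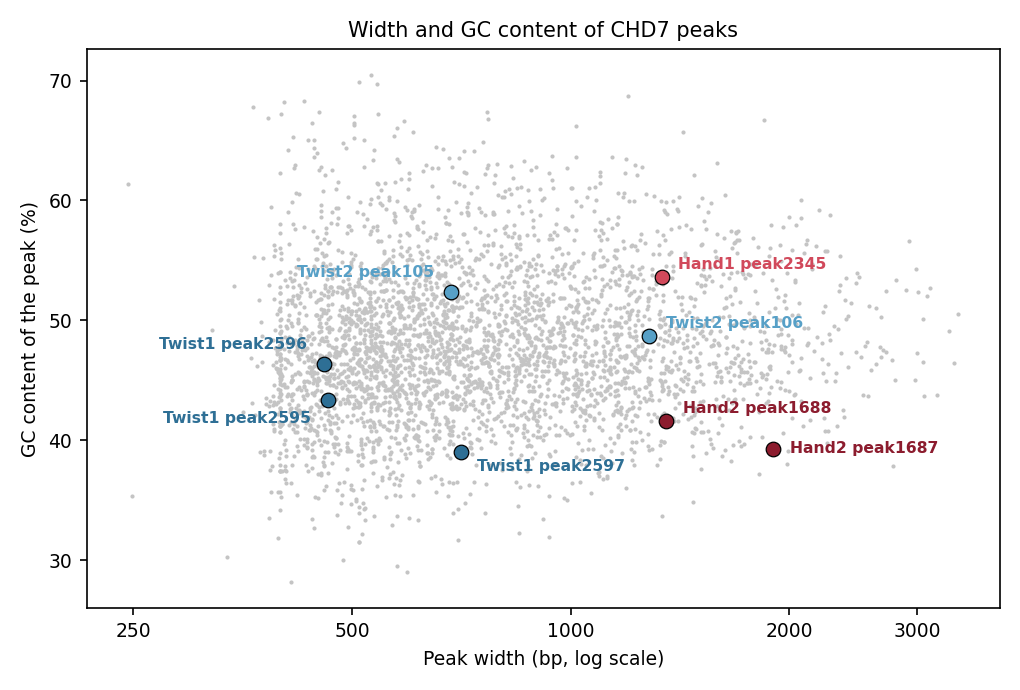
Each grey point is 1 of the 3761 CHD7 peaks by width (x axis, bp, log scale) and GC content (y axis, %), and the coloured points are the 8 peaks of Hand1, Hand2, Twist1 and Twist2. The 3 HAND peaks lie to the right, at 1335 to 1902 bp, with Hand1 at 53.6% GC above both Hand2 peaks, and a pair of Twist1 peaks lies at the left at 457 and 463 bp.

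Consensus matches were counted on both strands in the central 300 bp. A match describes the letters and is no proof of a bound site, and an absent match says nothing of the factor. An E-box, the site of the bHLH factors themselves, was found in 4 of 8 peaks, against 80.1% of all peaks. peak105 at Twist2 held 4 of the 7 matches, as the capitals above show. They were CAGCTG at 2 places, CACGTG, and CAACTG, which is printed above as its other strand, CAGTTG. peak2595 at Twist1 and peak106 at Twist2 held 1 CAAATG each. Both Hand2 peaks, peak2596 and peak2597 held none. In the central 200 bp an E-box was in 3 of 8 peaks, against 66.6% of all peaks. With 500 bp searched, all 8 held one, beside 93.3% of all peaks. By kind, CAGCTG was in 2 of 8 peaks (16.6% of all) and CAAATG in 2 (19.0%), whereas CATCTG (23.4%), CATATG (5.48%) and CAGGTG (21.6%) were in none of the 8. These kinds are themselves E-boxes and are counted in the 80.1%.

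Among the sites of other cardiac factors, the GATA consensus AGATAA was found in 2 of 8 peaks, against 17.4% of all peaks. peak1687 at Hand2 held 2 matches, centred near -30 and 115 bp from the midpoint, and peak2597 at Twist1 held 3, at -122, 117 and 143 bp. The homeobox consensus of ISL1 (CTAATGG or CTAATTG) was in 2 of 8, both at Twist1, in peak2595 at 93 bp and in peak2596 at 26 bp, against 5.24% of all peaks. The NKX consensus TNAAGTG was in both Twist2 peaks, against 16.9% of all. In peak105 it lay at -31 bp from the midpoint, beside a CAGCTG at -38 bp, and in peak106 at 42 bp, beside a T-box consensus (AGGTGT) at 30 bp. The T-box consensus was also in peak2597 and in 16.2% of all peaks. The SP/KLF consensus GGGCGG was in 1 of 8 peaks and in 11.2% of all peaks. A MEF2 consensus was in none of the 8 and in 2.79% of all. The centre of peak1688, made up largely of repeats, held none of these.

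**Figure D4:**
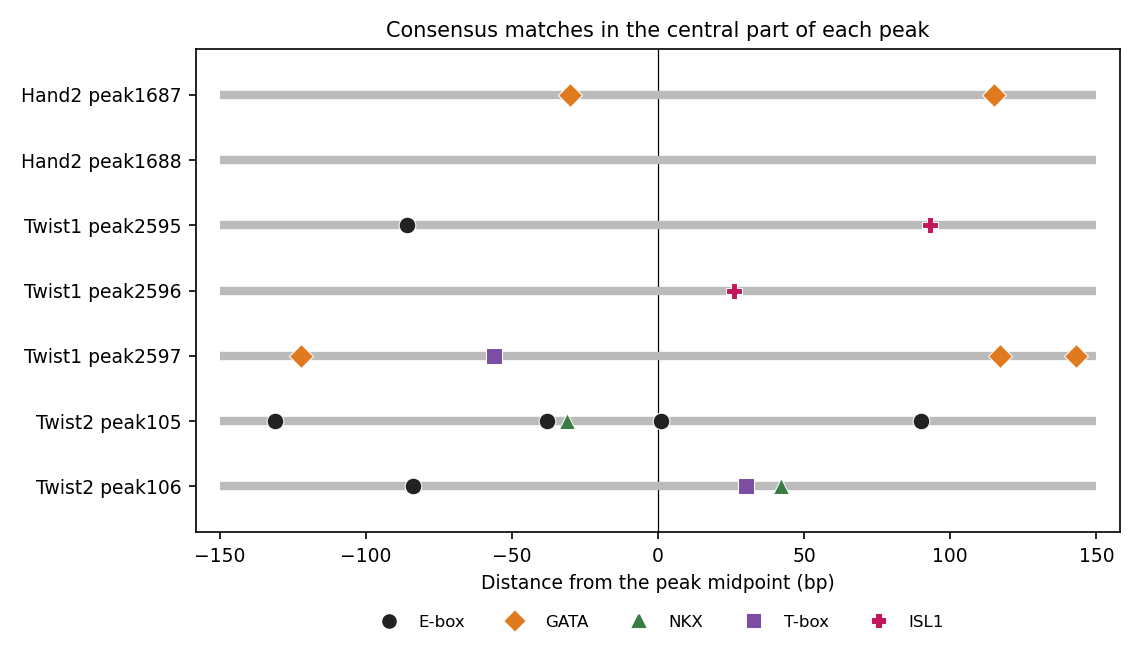
Each grey line is the central 300 bp of 1 of the 7 peaks of Hand2, Twist1 and Twist2 (x axis, distance from the midpoint in bp, plus strand to the right), and symbols mark the centres of consensus matches. E-boxes are most numerous at Twist2 peak105, with 4, GATA matches are in Hand2 peak1687 and Twist1 peak2597, ISL1 matches are at Twist1 only, and the line of Hand2 peak1688 is empty.

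Set against 17 other bHLH genes, 10 of the 17 had a peak in their domain, 58.8% (Wilson 95% CI 36.0 to 78.4), beside 22.7% of all genes. The list was chosen with earlier results of these data known, and neighbours such as Myf5 and Myf6 count as separate genes. The interval covers counting error only and is no test. The 17 genes had 17 peaks in all and a median domain of 109.0 kb, a length class in which 19.9% of genes had a peak. Their domains ran from 25144 bp at Lyl1, in a class with 9.27%, to 1486145 bp at Tcf4, in the class with 44.1%. Among the E proteins and their ID inhibitors, 3 of 6 had a peak, in length classes with 13.5% to 44.1% of genes. Tcf3, the gene for E2A, had peaks at 17174 and -39154 bp, Tcf4, the gene for E2-2, had 5 peaks, and Id2 had peaks at -41422 and -548084 bp, whereas Id1, Id3 and Id4 had none. The third E protein gene, Tcf12, was thus the one of these 3 without a peak.

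Among the other class II genes, 7 of 11 had a peak, beside 22.7% of all genes. Their domains lay in length classes in which 9.27% to 45.0% of genes had a peak. Msgn1, for mesogenin, had one at -23769 bp. Of the myogenic factors, Myod1 had one at -64848 bp and Myog one at -45738 bp, while Myf5 and Myf6 had none. Ptf1a had a peak at -13274 bp, Lyl1 at 5773 bp, and Bhlha9 at -83225 and -38758 bp. Ferd3l, the neighbour of Twist1, had 1 peak at -419355 bp, on the side away from Twist1. Scx, for scleraxis, and Tal1 had none. Apart from Ferd3l, each of these genes with a peak had one closer to its TSS than the -97553 bp of Hand1, the shortest distance at HAND and TWIST genes. By the rule, a peak of Msgn1, Myog, Lyl1 or Bhlha9 could not lie that far away, since their domains end nearer to the TSS. The median domain was 109.0 kb for the 17 other bHLH genes and 545.6 kb for the 10.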

How the data were processed

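Per the labels and the study's methods, the authors' CUT&RUN reads went through fastp trimming, BWA alignment (mm10), duplicate removal with unique molecular identifiers and MACS2 peak calling per sample with IgG as control. A peak had to overlap in at least 2 of 3 replicates. The submitters' processing notes name fastp 0.20.1, BWA 0.7.17.4 and MACS2 2.1.2. What was deposited is each peak's position in bp. The calling threshold was not given in the sources used here, and the reads, IgG and input were not analysed here.

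Starts were read as counted from 0. Genes came from GENCODE M21, with 1 TSS per gene chosen from protein-coding transcripts by APPRIS level and then spliced length, and the lowest gene identifier was kept where genes shared a symbol. Sequences were read from RefSeq GRCm38.p6. The peak numbers are the order in the list. The 10 genes, every gene sharing their peaks and 17 other bHLH genes were named by a fixed list. These members and lists were chosen with earlier results of these data known. Alternatives were other association rules, TSSs, peak edges, wide peaks and windows. The functions were tested on simulated data, where 7 of 7 checks passed and 100 of 100 planted E-boxes were found. The planted E-boxes were all CATCTG, on either strand, in sequence of A and T alone. The other consensus sequences were not planted, so the check does not cover their counts. Python 3.11.15, numpy 2.4.6, scipy 1.17.1, pysam 0.24.0 and matplotlib 3.10.9 were used. Protein identities of paralogues were planned and not run. The sequence of the Hand1 peak is not reported here.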

Additional observations from a re-analysis of the deposited data

How the results depend on the processing

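The count of 4 genes and 8 peaks was the same with an extension of at most 500 kb, with the longest transcript or the 5'-most start as TSS, and with any overlap in place of the midpoint. It became 1 gene and 2 peaks by the single nearest TSS, 0 genes and 0 peaks with only 5 kb upstream and 1 kb downstream, and 1 gene and 1 peak within 100 kb. Within 1 Mb, a rule chosen after seeing the data, it was 10 genes. With the peaks wider than the median it was still 4 genes, with 5 peaks, beside 13.0% of all genes. Over all genes the share with a peak was 22.7% by the main rule and 14.2% by the single nearest TSS. It was 3.17% with only 5 kb upstream and 1 kb downstream, 36.8% within 100 kb and 87.6% within 1 Mb. Within 100 kb the share of all genes thus rose while the count among the 10 genes fell. Of the 8 peaks, 7 lay over 100 kb from the TSS of their gene and dropped out by this rule. The median domain of all genes was 90.2 kb, and why their share rose was not tested. E-boxes were in 3 of 8 peaks with 200 bp (66.6% of all peaks), in 8 with 500 bp (93.3%) and in 8 in the whole peak (96.4%). GATA matches were in 1 peak with 200 bp (11.8%) and in 4 in the whole peak (36.8%). CATCTG, in none at 300 bp, was in 4 with 500 bp (35.0%) and in 5 in the whole peak (49.5%). A longer window holds more matches by construction. No paired analysis was possible because the list has no replicate columns, and leaving out a replicate was not possible for the same reason. With no read counts, depth limits every count to an unknown extent, and a gene without a peak cannot be told apart from one with a peak below the authors' threshold.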

Other observations

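The TWIST genes stand beside class IIa histone deacetylase genes, a point noticed after the peaks were seen. Of the 4 genes of that class, Hdac9 had 3 peaks in its domain and Hdac4 had 1, all inside the gene and all also in the domain of Twist1 or Twist2, while Hdac5 and Hdac7 had none. Hdac9 and Hdac4 are the longest of the 4, with 869516 and 266921 bp against 35735 bp for Hdac5 and 51839 bp for Hdac7. Of all protein-coding genes 22.7% had a peak. The domains of Hdac9 and Hdac4 lay in the length class in which 44.1% of genes had one. Those of Hdac5 and Hdac7 lay in classes with 13.5% and 19.9%.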
